A study of Nothobranchius furzeri with 10 samples.

Results

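The 200 shortest genes expressed in the brain of the turquoise killifish (Nothobranchius furzeri) were examined in 10 RNA sequencing libraries. Expressed genes were those with a mean of at least 5 CPM (counts scaled to library size), a count and an RPKM (reads scaled to library size and gene length) above 0 in every library, and a place outside the 200 most abundant genes. This gave a pool of 14298 of the 26739 genes in the table, and the 200 of smallest length were 1.4% of it. All samples were total RNA of the brain of male fish of strain MZM-0410p aged 22 weeks. The perturbation label gives synthetic miR-101a at 100 pmol for 5 samples and a scrambled control for the other 5; the series design text calls the same agent an antagomiR, a microRNA inhibitor, so no direction of effect was assumed. No label states that each library is a different animal, and the p-values refer to the variation among these 10 libraries, part of which may be technical.

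Short coding genes of vertebrates encode small proteins. Well-known classes are ribosomal proteins, small subunits of the respiratory chain, the gamma subunits of G proteins, and the precursors of neuropeptides. MicroRNAs bind messenger RNAs through a short seed, mostly in 3' untranslated regions (UTRs), and lower their stability and translation. The deposited tables give identifiers without gene symbols, and 0 of them matched a table of 38438 RefSeq genes of a newer assembly. No member is therefore given a name or a role, and the brain label was not checked against marker genes. Members are described by length and level, and 4 of them by identifier.

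Library totals ran from 19598030 to 27086488 counted reads. The members took 0.709% of the counts on average, while the rest of the pool took 78.6%. Each member collected at least 1179 reads over the 10 libraries, with a median of 3519 and a maximum of 112818. The lowest count of any member in a single library was 55. Counting error alone gives a member a median SD of 0.078 in log2 CPM, against 0.055 for the rest of the pool.

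The lengths were whole numbers once the library totals used in the RPKM table were put back in order. The members ran from 22 to 348 bases with a median of 306, against a median of 3096 in the rest of the pool and 14094 in the 200 longest genes. Of the members, 131 had 300 to 348 bases, 23 had 250 to 299, 26 had 200 to 249 and 16 had 150 to 199. A single member had 84 bases, and 3 had 22, 23 and 24 bases. These 3 were the only genes of the pool under 30 bases. Features of this size are as long as a mature microRNA, but the files do not say what they are.

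A length that is a multiple of 3 is typical of a gene model that holds coding sequence only, since a codon has 3 bases. The length was such a multiple in 185 members, or 92.5%. The share was 81.0% in the shortest of 4 equal length classes of the other pool genes, 47.2% and 38.2% in the next classes and 37.3% in the longest, and 40.5% in the 200 longest genes. The lengths are therefore read here as mostly coding lengths, for which UTRs would not be included; no annotation was used to check single genes, and non-coding lengths can be multiples of 3 as well, as is that of the 24-base feature. Of the 15 members whose length was no multiple of 3, 2 were those of 22 and 23 bases.

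The limit of the list fell within a group of equal lengths. Of 9 pool genes of exactly 348 bases, 5 were members, and the order among them rests on rounding of the RPKM values. The last 3 members inside the limit had means of 14.0, 8.82 and 14.8 CPM and log2 fold changes of -0.11, -0.12 and 0.02 between the groups. The first 3 genes outside it had 7.44, 64.0 and 46.6 CPM and log2 fold changes of 0.02, 0.03 and 0.08. A length could be derived only for the 22808 genes with a read. Of these, 878 had a length of up to 348 bases, of which 673 had a mean below 5 CPM and 1 was among the 200 most abundant genes.

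Most members were weakly to moderately expressed. Their mean level ran from 5.02 to 480 CPM with a median of 15.0, while the rest of the pool had a median of 29.9 CPM. A level under 10 CPM was found in 67 members and a level above 100 CPM in 12. The 10 most abundant members held 39.3% of all reads counted to the list. Per kilobase of length the order turned, with a median of 52.2 CPM per kilobase in the members and 10.9 in the rest of the pool. The choice of genes fixed this direction in advance. A mean of 5 CPM at 348 bases already equals 14.4 CPM per kilobase, which is above the median of the rest of the pool. The turned order is therefore no result about the members.

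**Figure D1:**
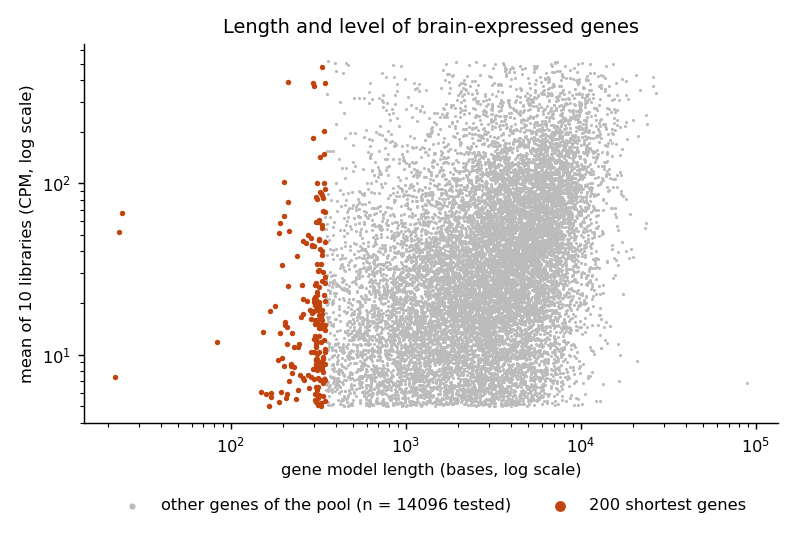
Mean level over 10 libraries (CPM, log scale) against gene model length (bases, log scale) for the 200 shortest genes (red) and the other pool genes that were tested (grey, n = 14096). The members fill the band up to 348 bases from 5.02 to 480 CPM, with 3 points at 22 to 24 bases far to the left.

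The most abundant member, a gene model of 333 bases, stood at 464, 485, 517, 437 and 524 CPM in miR-101a replicates 1 to 5 and at 491, 467, 494, 507 and 413 CPM in scrambled replicates 1 to 5. The ranges of the groups shared the stretch from 437 to 507 CPM, and the log2 fold change (miR-101a minus scrambled) was 0.03 with a standard error of 0.07. The next 4 members by level had 213, 345, 294 and 300 bases and means of 391, 386, 384 and 369 CPM. All 5 of these genes were highest in miR-101a replicate 5. In the rest of the pool this library was also the one most often highest, in 2715 of 14098 genes. In the gene of 213 bases that library stood at 501 CPM, while the other 9 lay between 355 and 400 CPM.

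The 3 features of microRNA size were counted in every library, which the choice of genes required of all members. Whether their reads came from mature microRNAs or from longer transcripts was not tested. The shortest, of 22 bases, was measured at 7.57, 6.86, 8.93, 7.14 and 5.37 CPM in miR-101a replicates 1 to 5 and at 8.73, 5.97, 5.99, 8.13 and 9.34 CPM in the scrambled replicates in order. The feature of 23 bases lay between 48.9 and 60.0 CPM in the miR-101a libraries and between 47.7 and 52.5 CPM in the scrambled ones. Both groups overlapped in each of these features.

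The feature of 24 bases varied more. It stood at 89.6, 74.3, 73.7, 54.5 and 55.1 CPM in miR-101a replicates 1 to 5 and at 54.5, 67.9, 85.2, 69.8 and 41.9 CPM in scrambled replicates 1 to 5. High and low libraries occurred in both groups. The log2 fold changes of the 3 features, in order of length, were -0.09, 0.08 and 0.12, with standard errors of 0.16, 0.06 and 0.20. Per kilobase they reached 337, 2247 and 2778 CPM, the last being the highest value in the pool. A read that overlaps so short a feature is counted whole, so these per-length values are not comparable with those of longer genes. Whole counting of reads can also raise the values per kilobase of the other members. Its part in the higher median per kilobase of the list was not tested.

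The comparison of the groups asked which short genes differed after the miR-101a agent. None did by the test used. Among 19094 genes fitted together with edgeR's quasi-likelihood test, which held all 200 members, 0 members were called at an adjusted p of 0.05 (Benjamini-Hochberg), and 0% of all genes were. The smallest adjusted p of a member was 0.88. An unadjusted p below 0.05 was found in 3 members, 1.5% of the list, against 4.90% of all genes tested. Of these, 1 was higher in the miR-101a group (0.5% of members, 2.47% of all genes) and 2 were lower (1.0% of members, 2.43% of all genes). When single libraries were left out, the count was 5 without miR-101a replicate 2 (2.5% of members, 4.28% of all genes), 7 without miR-101a replicate 4 (3.5% and 9.64%) and 5 without scrambled replicate 1 (2.5% and 6.55%). It was 6 without scrambled replicate 4 (3.0% and 3.90%), 8 without scrambled replicate 5 (4.0% and 6.06%), and 2 to 4 without any other single library. DESeq2 called 0 members at an adjusted p of 0.05, against 0.0683% of the genes it tested, and limma-voom called 0 members and 0% of all genes. In 0 members did the 5 libraries of one group lie outside the range of the other, against 0.676% of all genes tested.

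Differences in the members were small. Their median log2 fold change was 0.016, with 113 above 0 (56.5%) and 87 below. Over all genes tested the median was 0.002, with 50.8% above 0. The shortest length class of the other pool genes was near the members, with a median of 0.014 and 55.9% above 0. With 1 library left out at a time, the member median was lowest (0.001) when miR-101a replicate 3 was dropped and highest (0.036) when replicate 4 of that group was dropped. In size, the median log2 fold change was 0.053 in the members, 0.063 in the rest of the pool and 0.078 in all genes tested, which include weaker genes. In size, 95% of members lay below 0.243, against 0.344 in the rest of the pool and 0.489 in all genes tested. An interval of 1.96 standard errors on each side of the log2 fold change stayed inside a 1.5-fold change up or down in 189 members (94.5%). It stayed inside a 1.25-fold change in 144 (72.0%). The corresponding shares were 90.5% and 71.1% in the rest of the pool. With so few libraries, a 95% interval from the test itself is wider than this, so these shares are upper limits. In at least 6 members the interval reached beyond a 2-fold change, and these data cannot show whether a difference of that size exists there.

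**Figure D2:**
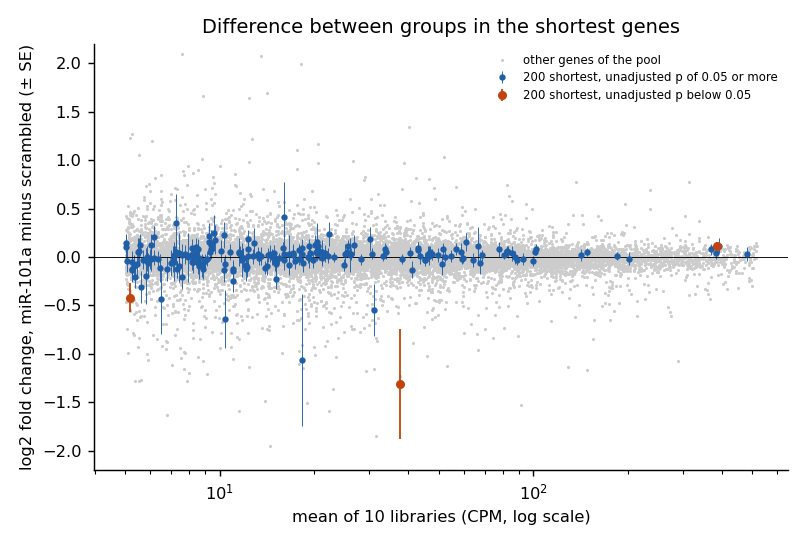
Log2 fold change (miR-101a minus scrambled) with its standard error against mean level (CPM, log scale) for the 200 shortest genes. Red points are the 3 members at an unadjusted p below 0.05, blue points the other members, and grey points other pool genes, of which 4 lie outside the drawn range. The members sit close to 0, and 4 of them lie beyond 0.5 in size, all on the lower side.

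The members with the smallest p in each direction were as follows. Nfu_g_1_004207, with 345 bases, stood at 398, 397, 399, 374 and 438 CPM in miR-101a replicates 1 to 5 and at 385, 367, 356, 386 and 364 CPM in scrambled replicates 1 to 5. Only miR-101a replicate 4 lay within the scrambled range. The log2 fold change was 0.11 with a standard error of 0.05 (edgeR unadjusted p = 0.0495, adjusted p = 0.88). Without miR-101a replicate 5, the highest library, it was 0.07 (edgeR unadjusted p = 0.102). Without miR-101a replicate 4 it was 0.14 (edgeR unadjusted p = 0.0198).

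Nfu_g_1_012912, with 300 bases, was measured at 13.1, 12.3, 12.8, 13.1 and 13.9 CPM in the miR-101a libraries and at 11.6, 10.1, 11.8, 10.0 and 13.8 CPM in the scrambled libraries. Scrambled replicate 5 was as high as the miR-101a group, and the other 4 scrambled libraries were below it. The log2 fold change was 0.18 with a standard error of 0.09 (edgeR unadjusted p = 0.0744, adjusted p = 0.88). This gene is thus not among the 3 members at an unadjusted p below 0.05.

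On the lower side, Nfu_g_1_006912, with 321 bases and the smallest p of all members, stood at 4.51, 4.74, 5.13, 4.70 and 3.04 CPM in the miR-101a libraries and at 5.97, 6.33, 4.99, 7.00 and 5.27 CPM in the scrambled libraries. The groups met at about 5 CPM, where miR-101a replicate 3 was above scrambled replicate 3. The means were 4.42 ± 0.808 and 5.91 ± 0.809 CPM (SD, n = 5 each). The log2 fold change was -0.42 with a standard error of 0.15 (edgeR unadjusted p = 0.0169, adjusted p = 0.88).

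Nfu_g_1_007450, with 240 bases, had the most negative log2 fold change of the list, at -1.31 with a standard error of 0.57 (edgeR unadjusted p = 0.0432, adjusted p = 0.88). Its levels were 3.65, 17.2, 37.9, 23.4 and 25.4 CPM in miR-101a replicates 1 to 5 and 42.8, 66.7, 33.3, 19.7 and 106 CPM in scrambled replicates 1 to 5. The lowest value was that of miR-101a replicate 1 and the highest that of scrambled replicate 5, and the groups overlapped between 19.7 and 37.9 CPM. Without scrambled replicate 5 the log2 fold change was -0.91 (edgeR unadjusted p = 0.132). The most positive log2 fold change, 0.42 with a standard error of 0.36, belonged to a gene of 288 bases that ranged from 9.82 to 25.7 CPM in the miR-101a libraries and from 8.80 to 26.9 CPM in the scrambled ones.

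**Figure D3:**
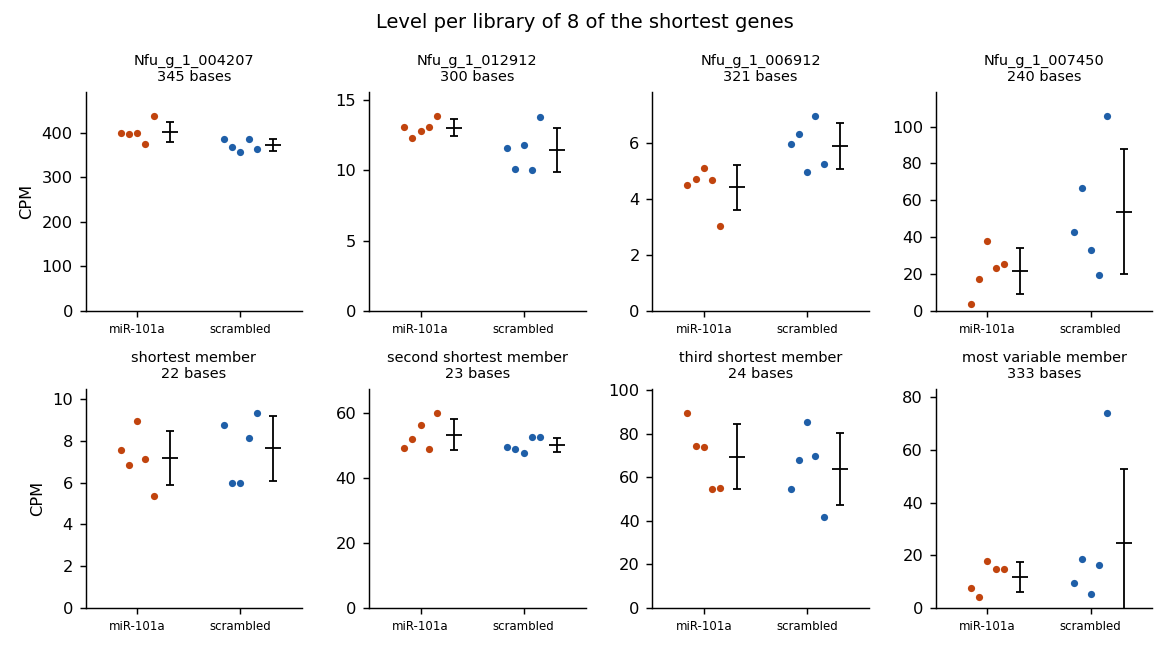
CPM per library for 8 of the shortest genes, from 0, with the 5 miR-101a libraries in red and the 5 scrambled libraries in blue in replicate order from left to right; the black bar is the mean and SD (n = 5). The groups overlap in all 8 panels, and scrambled replicate 5 stands high at 106 CPM in Nfu_g_1_007450 and at 74.1 CPM in the most variable member.

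In total spread, which includes counting error, the members varied between libraries about as much as other genes of the pool. The SD of log2 CPM within groups had a median of 0.135 in the members and 0.131 in the rest of the pool. At the same level the median of the members was lower at 5 to 10 CPM (0.167 against 0.203), 10 to 20 CPM (0.141 against 0.155) and above 50 CPM (0.091 against 0.101). At 20 to 50 CPM it was about equal (0.123 against 0.122). Without matching for level, the SD was over 2 times the counting error in 44.5% of members and in 63.3% of the rest of the pool. The members had a lower median level (15.0 against 29.9 CPM) and a larger median counting error (0.078 against 0.055), so these 2 shares are not directly comparable. These values are descriptions without a test. Of the 200 pool genes with the highest SD, 2 were members.

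The most variable member had 333 bases and an SD of 1.18 in log2 CPM. It stood at 7.52, 4.07, 17.7, 15.0 and 14.9 CPM in the miR-101a libraries and at 9.44, 18.6, 5.37, 16.4 and 74.1 CPM in the scrambled libraries. Scrambled replicate 5 was far above all others. The second most variable was Nfu_g_1_007450, which had its highest value in the same library. The least variable member, with 345 bases, lay between 43.6 and 47.2 CPM in all 10 libraries, an SD of 0.033 against a counting error of 0.044.

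**Figure D4:**
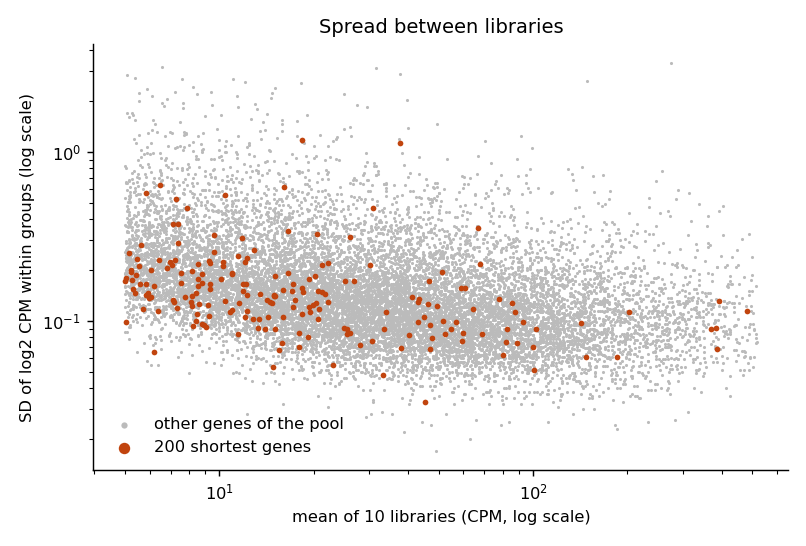
SD of log2 CPM within groups (log scale) against mean level (CPM, log scale) for the 200 shortest genes (red) and the other pool genes (grey). The members lie within the cloud of other genes, and 2 of them, at 18.3 and 37.6 CPM, reach an SD above 1.

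Summed by library, the members took a similar share of the counts. The share was 0.715, 0.713, 0.726, 0.680 and 0.746% in miR-101a replicates 1 to 5 and 0.711, 0.701, 0.687, 0.713 and 0.702% in scrambled replicates 1 to 5. The group means were 0.716 ± 0.024% and 0.703 ± 0.0103% (SD, n = 5 each), a difference of 0.0125 percentage points that lay within the spread of the libraries. The difference was 0.0216 without miR-101a replicate 4 and 0.0051 without miR-101a replicate 5. The lowest and the highest library both belonged to the miR-101a group.

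The median deviation of the members from their gene means in log2 CPM was 0.026, 0.012, 0.040, -0.061 and 0.039 in miR-101a replicates 1 to 5 and 0.001, -0.006, -0.042, 0.001 and 0.027 in scrambled replicates 1 to 5. In the 200 longest genes of the pool, which have at least 12175 bases, the same measure was -0.070, -0.066, -0.154, 0.129 and -0.217 in the miR-101a libraries and -0.107, 0.100, 0.115, 0.142 and 0.055 in the scrambled libraries. The library with the lowest median in the short genes, miR-101a replicate 4, was thus among the highest in the long genes, and miR-101a replicates 3 and 5 were high in the short and lowest in the long genes. The longest genes had a median log2 fold change of -0.126, with 25 above 0 (12.5%, against 50.8% of all genes tested). Of these 200 genes, 31 were lower and 0 higher at an edgeR unadjusted p below 0.05, against 2.43% lower and 2.47% higher over all genes tested. The difference between the short and the long genes was not tested, and what sets libraries apart by gene length was not tested either.

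**Figure D5:**
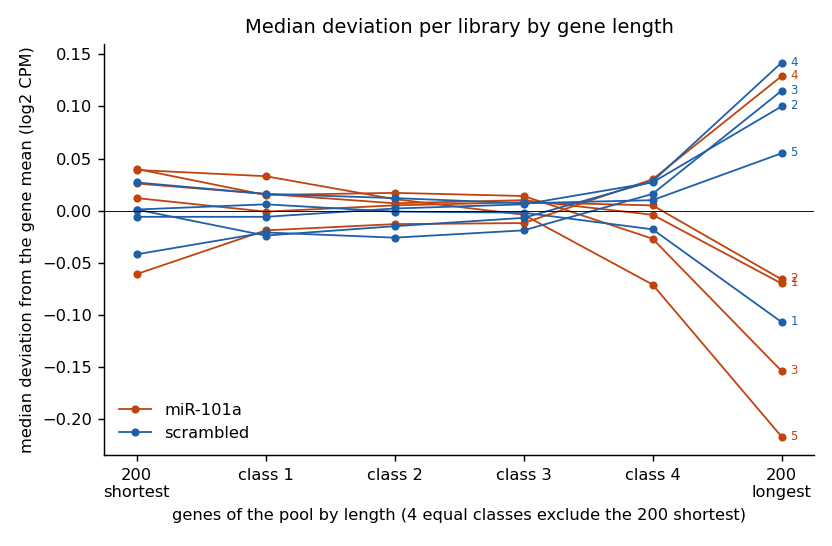
Median deviation from the gene mean (log2 CPM) in each of 10 libraries for the 200 shortest genes, 4 equal length classes of the other pool genes, and the 200 longest genes, which are part of class 4. Lines join the values of a library, numbers mark replicates, and the spread is -0.061 to 0.040 in the shortest genes and -0.217 to 0.142 in the longest.

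Correlations between members were centred near 0. Over the 10 libraries the median Pearson correlation between members was 0.04 over 19900 pairs, with 90% of pairs between -0.56 and 0.62, while it was 0.00 over all pairs of pool genes and 0.42 in the 200 longest genes. A correlation above 0.8 was found in 0.653% of member pairs, 0.884% of pool pairs and 15.7% of pairs of the longest genes. All pairs share the same libraries, so these values describe the libraries and carry no test. The median counting error in log2 CPM was 0.078 beside a median SD of 0.135 in the members, and 0.028 beside 0.173 in the longest genes. Its part in the correlations was not tested. In 3 members, chosen after their values were seen, the libraries were high and low as in the medians of the longest genes. In a gene of 318 bases with a mean of 10.4 CPM, levels were 7.11, 8.37, 6.90, 13.6 and 4.90 CPM in miR-101a replicates 1 to 5 and 5.97, 15.8, 13.6, 15.1 and 13.0 CPM in scrambled replicates 1 to 5. In a gene of 315 bases with a mean of 6.49 CPM they were 4.19, 5.49, 4.17, 10.7 and 3.11 CPM and 3.42, 8.72, 9.24, 8.27 and 7.54 CPM. In a gene of 321 bases with a mean of 31.0 CPM, other than Nfu_g_1_006912, they were 21.7, 24.9, 20.7, 42.7 and 16.2 CPM and 21.8, 41.1, 40.8, 44.1 and 35.4 CPM. In all 3, miR-101a replicate 4 stood with the scrambled libraries and scrambled replicate 1 with the miR-101a libraries. Their log2 fold changes over all 10 libraries were -0.64, -0.44 and -0.55, with standard errors of 0.30, 0.35 and 0.27, and the edgeR adjusted p was 0.88 or above in each.

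Within the list, the 3 features under 30 bases had a median level of 51.7 CPM, a median SD of log2 CPM of 0.287 and a median log2 fold change of 0.082. The median log2 fold change was 0.009 in members of 150 to 199 bases, 0.024 at 200 to 249, 0.029 at 250 to 299 and 0.015 at 300 to 348 bases. The median SD of log2 CPM in these 4 classes was 0.150, 0.137, 0.130 and 0.130, and the median level was 9.44, 11.3, 18.3 and 15.1 CPM. The classes differ in level as well as length, and their parts in the SD were not separated.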

How the data were processed

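Libraries were made with Illumina's TruSeq v2 RNA chemistry, per the labels. STAR 2.4.1d, featureCounts 1.4.6-p4 and bcl2fastq 1.8.4 appear in the submitters' processing notes. For genome build, annotation, strand setting and read length, the sources used here hold no statement, so values of overlapping genes and of near-identical copies are uncertain.

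The authors deposited whole-number read counts per gene, without normalization, and a table of RPKM for the same genes. In the deposited RPKM table the library totals run down the genes in turn, so 10.0% of values carry their own library's total. RPKM served to derive length and, as a value above 0 in every library, to filter the pool. Genes were ranked by a length of 1e9 times the mean of count over RPKM, divided by the mean library total. The lengths printed here are 1e9 times the summed counts over the summed products of RPKM and total, with the totals in that running order, rounded. In members every library gave a whole number within 0.0143 bases when the totals were put in that order. The members and lists were chosen with earlier results of these data known.

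Counts were fitted in R 4.3.3 with edgeR 4.0.16 (filterByExpr, TMM, robust glmQLFit and glmQLFTest, 19094 of 22808 genes with a read, all 10 libraries, no covariate) and adjusted by Benjamini-Hochberg over all genes tested. Only the main edgeR fit was tested on simulated data first. Each gene was drawn on its own there, so shifts shared by many genes of a library were absent. DESeq2 1.42.0 and limma 3.58.1 were alternatives, the former on the genes that filterByExpr kept. CPM used column totals. Other steps used Python 3.11.15, numpy 2.4.6, pandas 2.3.3 and matplotlib 3.10.9. Genes given by identifier were the 2 members of smallest p in each direction; the others described were picked by rank (shortest, most abundant, most and least variable, largest fold change). Replicate numbers were given in record order and serve as names. Sequences of the members are not used here.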

Additional observations from a re-analysis of the deposited data

Results flagged for a closer look

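A library was marked where its gap to the nearest of the other 4 in its group exceeded 0.71 of the group's range. About 1 in 20 groups shows this by chance, and 5 were found among 44 groups examined, which cover 2 summed measures and 20 members, many of them picked for their level or spread. The median log2 deviation of the members was -0.0608 in miR-101a replicate 4, against 0.0121 to 0.0397 in the other miR-101a libraries. The most variable member, of 333 bases, stood at 74.1 CPM in scrambled replicate 5, against 5.37 to 18.6 CPM in the other scrambled libraries. A gene of 213 bases, among the 5 most abundant members, stood at 501 CPM in miR-101a replicate 5, against 365 to 400 CPM in the rest of that group, and at 355 CPM in scrambled replicate 3, against 375 to 384 CPM. The gene of 318 bases with a mean of 10.4 CPM stood at 5.97 CPM in scrambled replicate 1, against 13.0 to 15.8 CPM in the other scrambled libraries. Over all members, 24 of 400 groups (6.0%) had such a gap, and 8 of the 24 lay in miR-101a replicate 5. That library stood apart in the rest of the pool too, where it was highest in 2715 and lowest in 3111 of 14098 genes. Its median gap in log2 CPM to the median of the other libraries was 0.153 there and 0.139 in the members. In the rest of the pool the other libraries had gaps of 0.0885 to 0.102, so the trait is not particular to the short genes.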

How the results depend on the processing

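The number of members past an adjusted p of 0.05 was 0 in all alternatives run over 9 or 10 libraries and in all other member lists. The titles of both groups use the numbers 21, 22 and 23, without stating that these mark pairs; the deviations of libraries with equal numbers had correlations of -0.06, 0.04 and -0.22. In the 6 libraries that carry them, edgeR called 2 members with the number as a replicate block (332 of 19120 genes, 1.74%) and 3 with no replicate block (364 genes, 1.90%), all lower in the miR-101a group. They were a gene of 318 bases with a mean of 10.4 CPM and a gene of 321 bases with a mean of 31.0 CPM, which is not Nfu_g_1_006912 (log2 fold changes -0.91 and -0.85, edgeR adjusted p 0.0201 and 0.0116 with the block), and, without the block, a gene of 315 bases with a mean of 6.49 CPM. These fits leave out 4 libraries, among them miR-101a replicate 4 and scrambled replicate 1; the cause was not tested.

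The number of members at an unadjusted p below 0.05 was 3 (1.5% of members, 4.90% of all genes). It was 5 in DESeq2 (2.5% and 5.57%) and 7 in limma-voom (3.5% and 7.11%). In the 6 libraries it was 10 with the block (5.0% and 10.2%) and 9 without it (4.5% and 9.16%). In the main fit, 1 of the 100 shortest and 12 of the 400 shortest genes had such a p, against 4.90% of all genes tested. Leaving out single libraries gave 2 to 8 members. Over all genes tested, leaving out single libraries gave 3.28% to 9.64% at that p, the highest without miR-101a replicate 4. The median log2 fold change stayed between 0.001 and 0.036 over 27 alternatives (0.008 with a length trend removed), and the difference in share between 0.0051 and 0.0273 percentage points over 19. The median SD was 0.141 in the 100 shortest, 0.131 in the 400 shortest, 0.200 with a minimum of 1 CPM and 0.120 with 10 CPM, and 0.128 to 0.139 without single libraries. The 4 genes given by identifier were each refitted in 19 alternatives. They kept their sign in 76 of 76 combinations of gene and fit and passed an adjusted p of 0.05 in 0. They were picked by their p in these data and the fits share most libraries, so the kept sign is no independent support. Lists with all genes of 348 bases, without the 3 genes under 30 bases, or with multiples of 3 only were added after seeing the data. Depth limits the weakest members: at 5 to 10 CPM the counting error had a median of 0.112 in log2 CPM.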
